A study of Brassica rapa subsp. pekinensis with 6 samples.

Results

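The miR167 and miR393 families of small RNAs were examined in germinated Chinese cabbage (Brassica rapa) seeds with and without vernalization, the exposure to cold that prepares a plant to flower. Members were all listed miRNAs named miR167 or miR393, whatever the species prefix, arm or suffix, and rows with the same mature sequence were added together. This gave 17 distinct sequences of the 889 in the table, 12 of miR167 and 5 of miR393, from 26 rows. None of the 17 sequences was also listed under the name of another family. The 6 small RNA libraries came from the doubled haploid line 'FT', with 3 libraries from non-vernalized seeds (Nor) and 3 from vernalized seeds (Ver). According to the labels and the methods, Nor seeds were kept at room temperature for about 48 h, and Ver seeds were kept at 4 °C for 25 days. Both groups were in the dark and were sampled at the same length. The cold and the longer time came together in Ver, and their parts cannot be told apart. The methods describe a culture dish of seeds as a biological repetition, so the p-values are taken to measure the spread between dishes of 1 line. Seeds were split into the groups only once they had germinated, so Nor and Ver libraries may share dishes. The table held small RNAs only, and so no gene that marks a tissue could be checked.

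MicroRNAs are short RNAs cut as a duplex from the 2 arms of a hairpin precursor. The strand from the left arm is called 5p and that from the right arm 3p. One strand is loaded into an Argonaute protein and guides it to matching transcripts, and the other strand is usually degraded. In Arabidopsis, the 5p strand of miR167 directs cleavage of the transcripts of ARF6 and ARF8, which encode auxin response factors, the transcription factors that switch on auxin genes. The 5p strand of miR393 directs cleavage of the transcripts of TIR1 and related AFB genes, which encode the F-box receptors that bind auxin. Both families therefore act on the response to auxin, one at the receptor and the other at the transcription factor. Neither target gene was measured in this table.

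The sequences that the results turn on are printed first, 5′ to 3′, with T in place of U as in the table. Bases 2 to 8, the seed, are in capitals. The prefixes name the species whose known miRNA was matched (bra, B. rapa, and ath, Arabidopsis thaliana, among others). The suffixes L and R give bases lost or gained at either end relative to that miRNA, and ss gives substitutions.
bra-miR167a (5p): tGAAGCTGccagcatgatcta
ath-miR167a-3p: gATCATGTtcgcagtttcacc
bna-miR167d_R+1 (5p): tGAAGCTGccagcatgatctt
ptc-miR167f-3p_L-1: gATCATGTggcagtttcacc
mdm-miR167h_R+1_1ss22AT (5p): tGAAGCTGccagcatgatctttt
bna-miR167d_R+2 (5p): tGAAGCTGccagcatgatctgg
bna-MIR167d-p3: aGATCATCctgcggcttcatt
aly-miR167c-5p: tAAGCTGCcagcatgatcttg
ath-miR167a-5p_L-1R-1_1ss2GT: tAAGCTGCcagcatgatct
ath-miR167a-5p_L-1R-2_1ss2GT: tAAGCTGCcagcatgatc
ath-miR167c-3p_L-3_1ss17TC: gTCATGCTggtagcttcacc
ath-miR393a-5p: tCCAAAGGgatcgcattgatcc
ath-miR393b-3p_1ss14TA: aTCATGCGatctcattggatt

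The 5p sequences of miR167 fell into 2 seed groups. A group of 4 had the seed GAAGCTG and shared their first 20 bases, so that they differed only in what followed. Another 3 had the seed AAGCTGC, in which the frame was moved by 1 base. The 19-nt and 18-nt sequences of this second group were named as shortened and substituted forms of miR167a and were placed at the miR167a hairpins on A05 and A01. Each differed from the hairpin at its first base (T1G, the first base of the small RNA against that of the hairpin). Both were also exact starts of the 21-nt aly-miR167c-5p, without its last bases TG or TTG. They are therefore described here with miR167c, and their origin was not tested. On the 3p side, ath-miR167a-3p and ptc-miR167f-3p_L-1 shared the seed ATCATGT.

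Precursors were listed for 13 of the 17 sequences, and the remaining 4 had no listed position. Coordinates are those of the deposited table. Of 88 miRNA genes in the RefSeq annotation of the assembly CAAS_Brap_v3.01, 71 had the same chromosome, start and end as a row of the table, which identifies the build. The most abundant pair, bra-miR167a and ath-miR167a-3p, was listed at 3 hairpins: A01:21199297-21199428 (minus strand, overlapping the RefSeq gene MIR167B), A03:20198620-20198754 (plus strand, MIR167A) and A05:18181356-18181479 (minus strand, no annotated gene). The A01 precursor is shown because it contains both strands, with the arms in capitals.
A01 hairpin: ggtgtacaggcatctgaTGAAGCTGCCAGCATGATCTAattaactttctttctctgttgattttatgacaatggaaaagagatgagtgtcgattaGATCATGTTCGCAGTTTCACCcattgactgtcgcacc
The A03 hairpin contains the 5p strand exactly but differs from the listed 3p strand by C12T (the base of the small RNA, the position from its 5′ end, then the base of the hairpin). Only the A01 and A05 hairpins hold the 3p strand as sequenced. The reads of each strand had been divided evenly over the 3 rows, so they cannot be assigned to a locus.

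A second pair, bna-miR167d_R+1 and ptc-miR167f-3p_L-1, was listed at a single hairpin, A09:12926171-12926264 (minus strand), with no annotated gene. It is shown because neither strand was listed anywhere else.
A09 hairpin: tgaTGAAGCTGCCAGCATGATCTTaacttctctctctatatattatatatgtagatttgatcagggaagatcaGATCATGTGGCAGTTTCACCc
The 3p strand of miR167c closed a hairpin at A05:27386123-27386262 (plus strand, no annotated gene), and the last 17 bases of aly-miR167c-5p opened the same interval. The first 4 bases of that 5p strand lie outside the listed interval.
miR167c hairpin: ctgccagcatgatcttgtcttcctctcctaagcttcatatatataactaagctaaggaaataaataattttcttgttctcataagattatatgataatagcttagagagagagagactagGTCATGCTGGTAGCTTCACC
A further pair lay on A08. bna-miR167d_R+2 was listed at A08:8925641-8925737 and bna-MIR167d-p3 at A08:8925193-8925257, both on the minus strand, 383 bp apart and overlapping the lncRNA gene LOC103833825. The table listed them as 2 precursors. The predicted folding energy of the first was -18.3 kcal/mol and that of the second -14.5 kcal/mol, against -53.8 for the A01 hairpin and -40.5 for the A09 hairpin. bna-MIR167d-p3 was listed again, as a left-arm sequence, at a hairpin on A09 with a folding energy of -5.4 kcal/mol. Neither of its precursors met the limit of at most -15 kcal/mol given in the file header.
In computed duplexes, 18 bases of the 5p strand paired with the 3p strand for the A01, A09 and A08 pairs, and 16 for miR167c.

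Across the whole table, 405 of the 889 sequences had enough reads to be tested with the edgeR quasi-likelihood test, and 247 of them (61.0%) had an adjusted p under 0.05. Of all those tested, 28.1% were called higher in Ver and 32.8% lower, with a median log2 fold change of -0.19. Between 749852 and 968483 listed miRNA reads were available per Nor library, and between 589061 and 771529 per Ver library. Expression is given as RPM, reads per 1e6 of the library total after TMM scaling. A listed 0 may stand for up to 5 reads, which is 4.91 to 8.79 RPM depending on the library. All 12 miR167 sequences and 2 of the 5 miR393 sequences were tested. Of these 14, 10 were called (71.4%, against 61.0% for all sequences), 2 of them higher and 8 lower. The share called was thus near that of the table. The study's own threshold asks for a log2 fold change beyond 1 in either direction and a p of at most 0.05 before adjustment. Applied to the TMM-scaled fold changes used here, 7 of the 14 passed it, all lower in Ver. Of the 405 sequences tested, 43.2% passed it, 78 of them higher and 97 lower in Ver. With the authors' own scaling factors, ath-miR167a-3p was beyond the limit (log2 fold change 1.13) and aly-miR167c-5p was within it (-0.96). The libraries were made from whole germinated seeds, so fewer cells that make a miRNA and less of it per cell cannot be told apart.

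The miR167 family moved in opposite directions in its abundant and its less abundant sequences. Its 2 dominant strands, which make up most of its reads, were higher in Ver. Of the other 10 sequences, 7 were lower in Ver and 3 did not pass the test. The median log2 fold change of the 12 sequences was -0.98, yet the sum of the family was higher in Ver. The median over the whole table also depended on abundance. It was -0.59 without the filter on low counts and 0.02 for sequences with at least 10 counts in every library. A count of 5 reads, up to which a listed 0 may stand, was 4.91 to 6.78 RPM in the Nor libraries and 6.41 to 8.79 RPM in the Ver libraries. The part of abundance and of this limit in the pattern of miR167 was not tested.

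**Figure D1:**
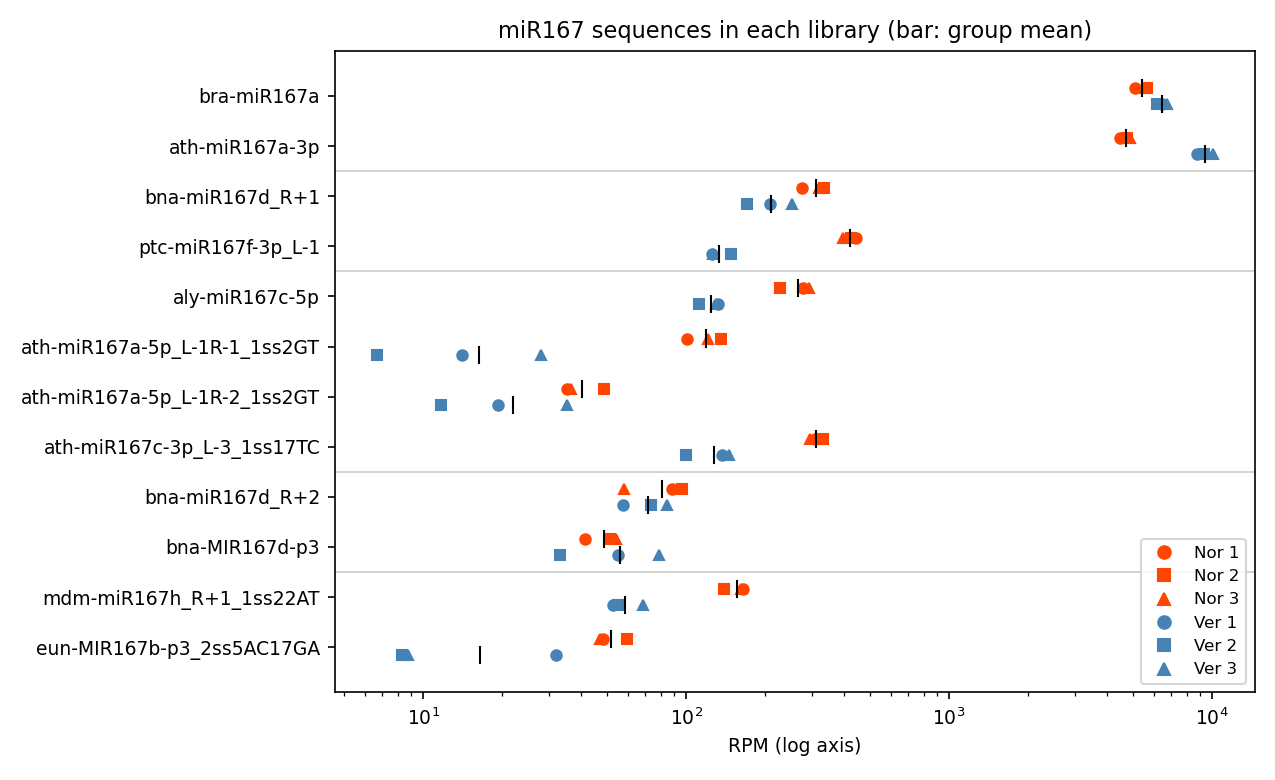
RPM of the 12 miR167 sequences in each library on a log axis, with Nor in orange, Ver in blue and short black bars for the group means. From top to bottom the lines separate the pair of the A01, A03 and A05 hairpins, the A09 pair, the miR167c set, the A08 pair and 2 sequences outside these sets. The 2 sequences at the top average 4704 and 5400 RPM in Nor and are higher in Ver, and most of the others sit lower in Ver.

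ath-miR167a-3p, the strand opposite the one known to guide cleavage, was the member that rose most. It had 4475, 4764 and 4874 RPM in Nor 1, 2 and 3, and 8764, 9309 and 10075 RPM in Ver 1, 2 and 3. Every Ver library lay above every Nor library. The group means of 4704 ± 206 and 9383 ± 659 RPM (SD, n = 3 each) gave a log2 fold change of 0.996 (SE 0.074, adjusted p = 2.52e-06). Its value lay just under the log2 limit of 1 set by the study, and ranged from 0.97 to 1.13 over the alternative fits.

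bra-miR167a, the 5p strand that in Arabidopsis targets ARF6 and ARF8, rose by much less. It was at 5072, 5677 and 5452 RPM in the Nor libraries and at 6442, 6168 and 6714 RPM in the Ver libraries. The groups did not overlap, but the gap between them was small. The means of 5400 ± 306 and 6442 ± 273 RPM (SD, n = 3 each) gave a log2 fold change of 0.25 (SE 0.070, adjusted p = 0.0114).

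Because the A01 and A05 hairpins hold both strands, their ratio was compared within each library, which does not depend on the scaling of the libraries. There were 0.882, 0.839 and 0.894 reads of ath-miR167a-3p per read of bra-miR167a in Nor 1, 2 and 3, and 1.36, 1.51 and 1.50 in Ver 1, 2 and 3. The 5p strand was the more frequent of the pair in every Nor library, and the 3p strand in every Ver library. The A03 hairpin can add to the reads of the 5p strand but not, by exact match, to those of the 3p strand. On the log2 scale the ratio differed by 0.74 (two-sided exact permutation test, p = 0.1, adjusted p = 0.118 over 13 ratios). With 3 against 3 libraries, 0.1 is the smallest p that the test can give. Mean ratios are geometric means over the 3 libraries of a group. Of the 13 ratios, 10 were chosen after the levels had been seen.

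The A09 pair fell, with a log2 fold change of -1.66 for its 3p strand and -0.56 for its 5p strand. ptc-miR167f-3p_L-1 had 443, 425 and 394 RPM in Nor and 126, 148 and 127 RPM in Ver. The Nor libraries were all above 390 and the Ver libraries all below 150. On average there were 420 ± 24.8 and 133 ± 12.7 RPM (SD, n = 3 each), which gave a log2 fold change of -1.66 (SE 0.118, adjusted p = 2.03e-06).

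Its partner bna-miR167d_R+1, a 5p sequence that differs from bra-miR167a only in its last base, went from 277, 335 and 321 RPM in Nor to 208, 170 and 253 RPM in Ver. The groups were apart by less than the range within Ver. Its log2 fold change was -0.56, from 311 ± 30.4 to 210 ± 41.8 RPM (SD, n = 3 each), with an SE of 0.155 and an adjusted p of 0.0114. Without Ver 2 the log2 fold change was -0.36 (edgeR adjusted p = 0.0447). The call was lost when Nor 2, Nor 3 or Ver 1 was left out (edgeR adjusted p = 0.0720, 0.0667 and 0.0749). It was also lost with DESeq2 (adjusted p = 0.0745), with limma (0.0642) and without the filter on low counts (0.0789).

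The arm ratio of the A09 pair ran against that of the dominant pair. Per read of bna-miR167d_R+1 there were 1.60, 1.27 and 1.23 reads of ptc-miR167f-3p_L-1 in Nor and 0.605, 0.877 and 0.502 in Ver. The 3p strand was the more frequent in every Nor library and the less frequent in every Ver library. The log2 difference was -1.08, against 0.74 for the dominant pair (two-sided exact permutation p = 0.1, adjusted p = 0.118). Set against each other within a library, the 3p strands, which share their seed, gave the largest difference of the 13 ratios. There were 0.0893 reads of ptc-miR167f-3p_L-1 per read of ath-miR167a-3p in Nor and 0.0142 in Ver (geometric means of 3 libraries). The 5p strands, bna-miR167d_R+1 to bra-miR167a, stood at 0.0574 in Nor and 0.0321 in Ver. Both ratios were apart between the groups, with log2 differences of -2.65 and -0.84 (two-sided exact permutation p = 0.1 each, adjusted p = 0.118). The A09 strands were lower and the dominant strands higher in every Ver library than in every Nor library. The separation of these ratios therefore follows from those levels, and the test adds no support to them.

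**Figure D2:**
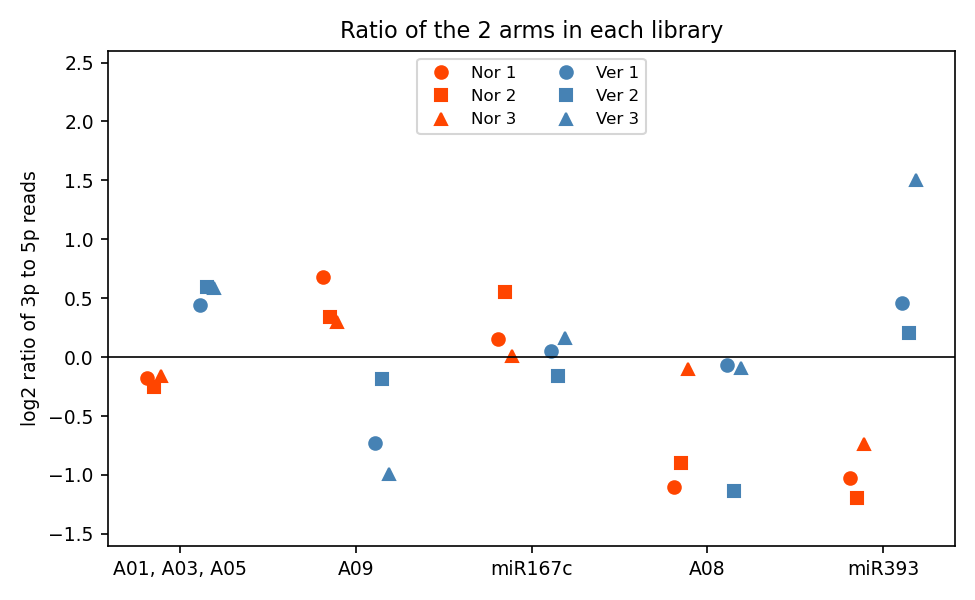
Log2 ratio of the reads of the 3p strand to those of the 5p strand in each library, for the 4 miR167 pairs and for miR393, with 1 point per library. The ratio is higher in Ver for the A01, A03 and A05 pair and for miR393, lower in Ver for the A09 pair, and overlaps between the groups for miR167c and the A08 pair. The miR393 5p sequence also occurs in hairpins that lack the 3p sequence, and the A08 strands were listed on separate precursors.

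The miR167c strands fell together. aly-miR167c-5p stood at 279, 227 and 294 RPM in Nor and at 132, 111 and 130 RPM in Ver. ath-miR167c-3p_L-3_1ss17TC stood at 309, 332 and 295 RPM in Nor and at 137, 99.8 and 146 RPM in Ver. For both strands every Ver library was below every Nor library. The log2 fold change was -1.10 (SE 0.147, adjusted p = 1.50e-04) for the 5p strand and -1.29 (SE 0.152, adjusted p = 6.13e-05) for the 3p strand. Their ratio was 1.18 in Nor and 1.01 in Ver (geometric means of 3 libraries) and overlapped between the groups (log2 difference -0.22, two-sided exact permutation p = 0.5, adjusted p = 0.542).

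The shortened 19-nt form of this 5p sequence, ath-miR167a-5p_L-1R-1_1ss2GT, was the member that fell most. It had 101, 136 and 121 RPM in Nor, and 14.1, 6.65 and 28.1 RPM in Ver. In reads these were 103, 99.5 and 89.5 against 11, 3.5 and 15.5, so that the Ver values rest on few reads. The log2 fold change was -2.88 (SE 0.388, adjusted p = 1.53e-04). It had 0.447 reads per read of the 21-nt aly-miR167c-5p in Nor and 0.105 in Ver (geometric means of 3 libraries, log2 difference -2.08, two-sided exact permutation p = 0.1, adjusted p = 0.118).

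The 18-nt form, ath-miR167a-5p_L-1R-2_1ss2GT, had 35.3, 48.8 and 36.4 RPM in Nor and 19.2, 11.6 and 35.2 RPM in Ver, with Ver 3 next to the Nor libraries. It did not pass the test (log2 fold change -0.87, SE 0.415, adjusted p = 0.0923), but did without Ver 3 (-1.27, edgeR adjusted p = 0.0254). Without Ver 2 the log2 fold change was -0.50 (edgeR adjusted p = 0.259), and without Nor 2 it was -0.66 (0.331). Short sequences as a class also differed between the groups. Of the table's reads, those of 18 nt took up 6.07% ± 1.04 among Nor libraries and 1.37% ± 0.174 among Ver libraries (SD, n = 3 each). Most of these ended in CCA, and the remainder made up 0.0846% of Nor and 0.109% of Ver reads. Sequences of 19 nt made up 0.846% ± 0.0793 of Nor and 0.790% ± 0.0441 of Ver reads. The part of these length classes in the fall of the short miR167c forms was not tested.

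A longer form was also lower in Ver. mdm-miR167h_R+1_1ss22AT is bna-miR167d_R+1 with the bases TT added, whereas the A09 hairpin continues with AAC, and no position was listed for it. It had 165, 140 and 162 RPM in Nor, and 52.5, 54.9 and 68.6 RPM in Ver. The lowest Nor library was more than 70 RPM above the highest Ver library. The log2 fold change was -1.41 (SE 0.181, adjusted p = 1.08e-04). Relative to the sequence that it extends, it had 0.501 reads per read in Nor and 0.282 in Ver (geometric means of 3 libraries, log2 difference -0.83, two-sided exact permutation p = 0.1, adjusted p = 0.118). Sequences of 23 nt as a class made up 1.30% of Nor and 1.49% of Ver reads.

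The A08 pair did not pass the test in either direction. bna-miR167d_R+2, which shares 20 bases with bra-miR167a, had 88.3, 96.3 and 58.0 RPM in Nor and 57.7, 73.2 and 84.4 RPM in Ver. bna-MIR167d-p3 had 41.2, 51.6 and 53.9 RPM in Nor and 55.1, 33.3 and 79.1 RPM in Ver. The groups overlapped for both. Their log2 fold changes were -0.18 (SE 0.256, adjusted p = 0.539) and 0.19 (SE 0.326, adjusted p = 0.605), so that changes of the size of bra-miR167a could not be detected at this depth. The last miR167 entry, eun-MIR167b-p3_2ss5AC17GA, had 48.1, 59.7 and 47.2 RPM in Nor and 32.0, 8.32 and 8.79 RPM in Ver. In reads it had 49, 44 and 35 in Nor and 25, 5 and 5 in Ver, so that Ver 2 and Ver 3 rest on few reads. By the length of its precursors it is the least certain member. Its 2 listed precursors were 23 and 40 nt long, with listed hairpin lengths of 17 and 34 nt. These are under the hairpin length of 50 nt given in the file header. The precursors overlapped the protein-coding genes LOC103839431 and LOC103842751 on A09. Its log2 fold change was -1.58 (SE 0.485, adjusted p = 0.0186). The call was lost when any library but Ver 1 was left out (edgeR adjusted p = 0.0717, 0.0958 and 0.0639 without Nor 1, 2 and 3, 0.0788 and 0.0761 without Ver 2 and 3), and without the filter on low counts (0.0669). Without Ver 1 the log2 fold change was -2.51 (edgeR adjusted p = 6.68e-04), and without Ver 2 it was -1.19.

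**Figure D3:**
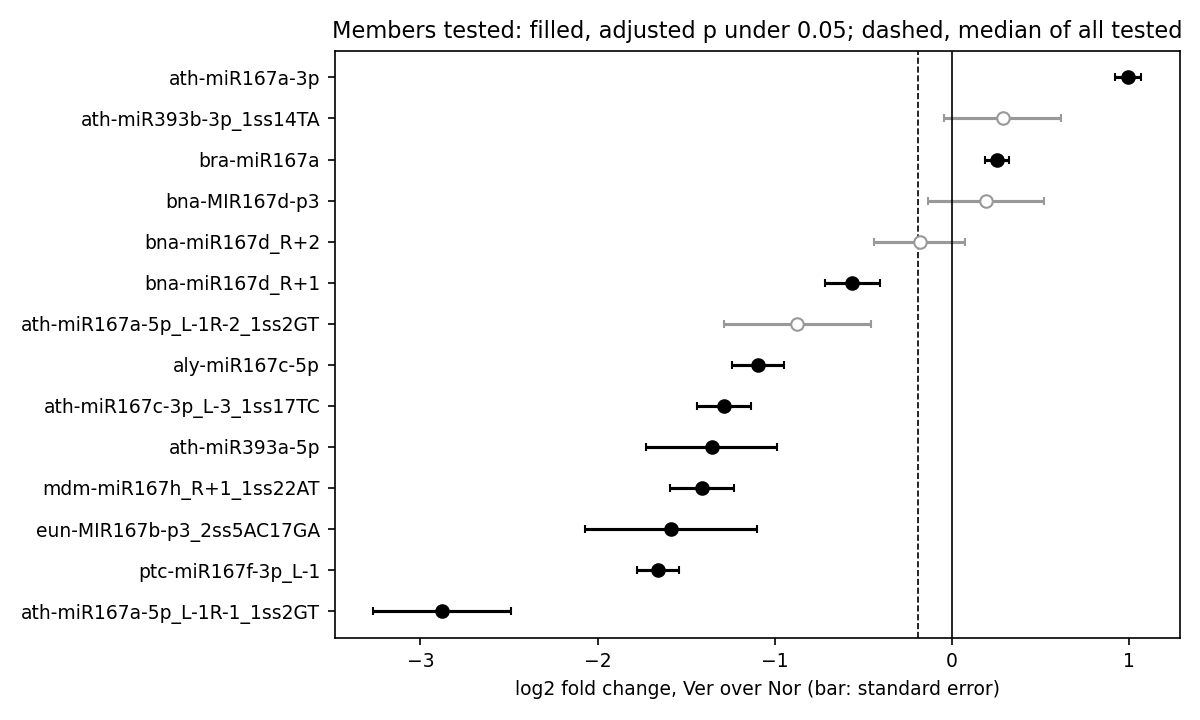
Log2 fold change of Ver over Nor with its standard error for the 14 sequences that were tested, ordered by value. Filled points had an adjusted p under 0.05 and open points did not. The dashed line is the median of all 405 sequences tested, -0.19. The miR167 sequences run from -2.88 to 0.996.

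The family as a whole followed its dominant pair. The miR167 total was 11333, 12291 and 12108 RPM in Nor and 16039, 16194 and 17749 RPM in Ver (means 11911 ± 509 and 16661 ± 946, SD, n = 3 each, log2 ratio 0.48). Without its 2 most abundant sequences the sum was 1806 ± 38.2 and 837 ± 122 RPM, a log2 ratio of -1.11. No test was made on these sums. The pair bra-miR167a and ath-miR167a-3p of the A01, A03 and A05 hairpins supplied 84.8% ± 0.534 of miR167 reads in the Nor libraries and 95.0% ± 0.516 in the Ver libraries. The share of the A09 pair went from 6.14% ± 0.227 to 2.06% ± 0.0901, and that of the 4 miR167c sequences, counting the 19-nt and 18-nt forms that were listed at the A05 and A01 hairpins, from 6.20% ± 0.175 to 1.74% ± 0.278 (SD, n = 3 each). These shares cover reads of the listed sequences only. Summed over the sequences with 1 listed arm, 3p strands made up 46.1% ± 0.607 of the miR167 reads of the Nor libraries and 58.0% ± 1.34 of those of the Ver libraries. In log2 terms the ratio of 3p to 5p reads of the family differed by 0.69, with every Ver library above every Nor library (two-sided exact permutation p = 0.1, adjusted p = 0.118). The 7 sequences of the 5p arm, the arm whose strand targets ARF6 and ARF8 in Arabidopsis, summed to 6373 ± 327 and 6945 ± 359 RPM, a log2 ratio of 0.12. They include the 3 sequences with the shifted seed AAGCTGC, and no target site was examined for any of them.

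**Figure D4:**
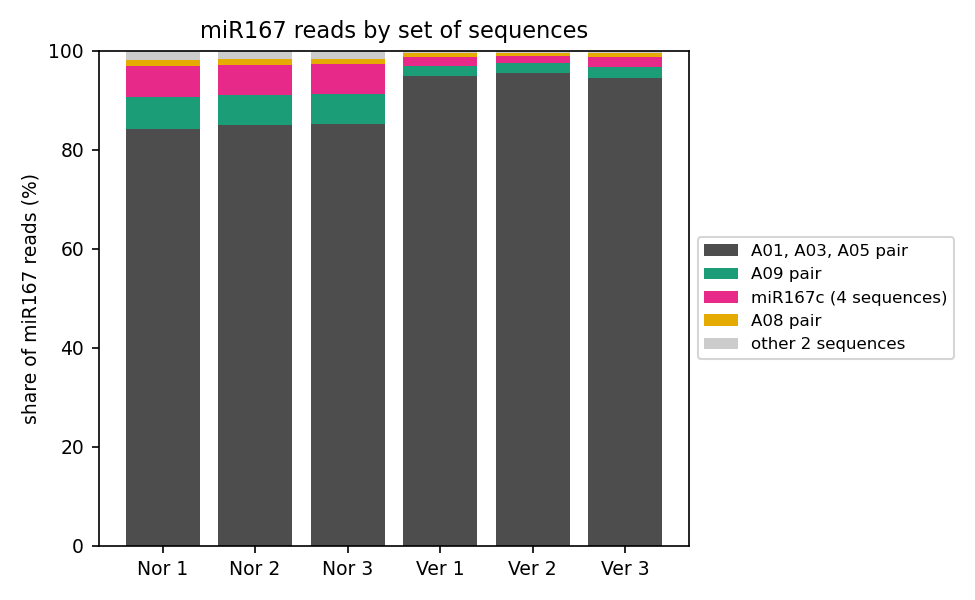
Share of the miR167 reads in each library by set of sequences, with the 19-nt and 18-nt forms counted under miR167c, as stacked bars that add up to 100%. The dark part, bra-miR167a with ath-miR167a-3p, is about 85% in the Nor libraries and about 95% in the Ver libraries, and the A09 and miR167c parts are narrower in Ver.

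The miR393 family was rare, with 40 to 86 reads per library in Nor and 23 to 38 in Ver. Its main 5p sequence, ath-miR393a-5p, was lower in Ver, and its main 3p sequence did not pass the test. ath-miR393a-5p was listed at A04:19695119-19695265 (plus strand, overlapping the protein-coding gene LOC103865752) and at A07:17939310-17939437 (plus strand, overlapping the lncRNA gene LOC103830025). The same 22 bases also occur in another hairpin, at A04:2727187-2727345 (minus strand), which is the listed origin of ath-miR393b-3p_1ss14TA. This hairpin is shown because it holds both strands. The capitals are those of the table. On the 5p side they mark the 21 bases of ath-miR393a-5p_R-1_1ss21CT, which was also listed here and differs from the hairpin by T21C, and not the 22 bases of ath-miR393a-5p, which was not listed here.
A04 hairpin of miR393: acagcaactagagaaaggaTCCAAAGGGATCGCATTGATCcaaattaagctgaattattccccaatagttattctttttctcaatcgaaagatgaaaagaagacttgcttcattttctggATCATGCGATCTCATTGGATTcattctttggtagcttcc
It overlaps the protein-coding gene LOC103863213 and the lncRNA gene LOC117133737. The reads of ath-miR393a-5p cannot be assigned to 1 of the 3 hairpins.

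The level of ath-miR393a-5p was 50.1, 52.9 and 33.7 RPM in Nor 1, 2 and 3 (51, 39 and 25 reads), and 20.5, 21.6 and 10.5 RPM in Ver 1, 2 and 3 (16, 13 and 6 reads). The groups did not overlap, with Nor 3 the nearest to the Ver libraries. Averages of 45.6 ± 10.4 and 17.6 ± 6.10 RPM (SD, n = 3 each) corresponded to a log2 fold change of -1.36 (SE 0.371, adjusted p = 0.0110). The call was lost when Nor 1 or Nor 2 was left out (edgeR adjusted p = 0.0762 and 0.0781).

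The 3p sequence ath-miR393b-3p_1ss14TA was at 24.5, 23.1 and 20.2 RPM in Nor and at 28.2, 24.9 and 29.9 RPM in Ver. Although the Ver libraries were slightly above the Nor libraries, the difference did not pass the test (log2 fold change 0.29, SE 0.333, adjusted p = 0.471). There were 0.490, 0.436 and 0.600 reads of the 3p sequence per read of ath-miR393a-5p in Nor, and 1.38, 1.15 and 2.83 in Ver. As in the dominant miR167 pair, the 5p strand was the more frequent in every Nor library and the 3p strand in every Ver library. In that pair, however, both strands were called higher in Ver, whereas in miR393 only the 5p strand was called, as lower. The miR393 5p sequence also occurs in hairpins that lack this 3p sequence, so the ratio is not that of a single precursor. The log2 difference was 1.71 (two-sided exact permutation p = 0.1, adjusted p = 0.118), and Ver 3, with 6 reads of the 5p strand, lay far from the other Ver libraries. The 3p sequence lay higher and the 5p sequence lower in every Ver library than in every Nor library. The groups therefore had to be apart in this ratio, and its test adds no support. The other 3 miR393 sequences were too rare to be tested. aly-miR393b-3p_1ss16TC and aly-miR393a-5p_2ss21CT22CT had 5 reads each in Nor 1 and were listed at 0 elsewhere, and ath-miR393a-5p_R-1_1ss21CT was listed at 0 in all 6 libraries.

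**Figure D5:**
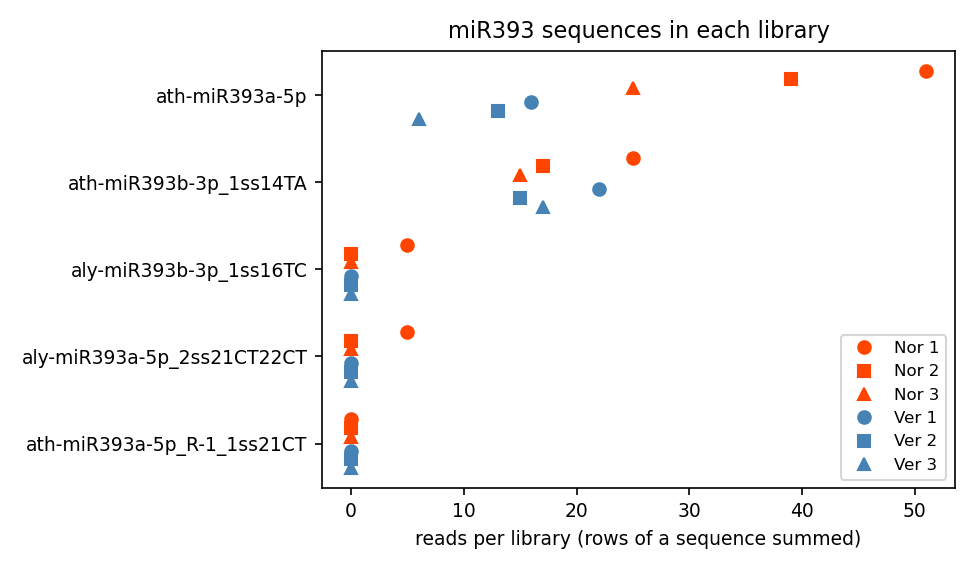
Reads of the 5 miR393 sequences in each library, with Nor in orange and Ver in blue. ath-miR393a-5p has 25 to 51 reads in Nor and 6 to 16 in Ver, ath-miR393b-3p_1ss14TA has 15 to 25 reads in either group, and the other 3 sequences have at most 5.

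In total, miR393 had 71.4 ± 15.7 RPM in the Nor libraries and 45.2 ± 4.30 RPM in the Ver libraries (SD, n = 3 each, log2 ratio -0.66, no test). Without ath-miR393a-5p the log2 ratio was 0.10. With only names without a substitution, which leaves ath-miR393a-5p alone, it was -1.38. There were 170 reads of miR167 per read of miR393 in Nor and 369 in Ver (geometric means of 3 libraries, log2 difference 1.12, two-sided exact permutation p = 0.1, adjusted p = 0.118). The miR167 total was higher and the miR393 total lower in every Ver library than in every Nor library. The separation of this ratio follows from those totals. The log2 difference was 0.63 with the value of 1 row per sequence and 1.97 with only names without a substitution. The latter again leaves only ath-miR393a-5p for miR393.

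Other miRNA families that act on auxin genes in Arabidopsis differed among themselves. miR160, which targets the repressing auxin response factors ARF10, ARF16 and ARF17, had 9 sequences tested, of which 8 were lower in Ver and 0 higher, with a median log2 fold change of -1.19. Its leading sequence, bra-miR160a-5p, fell from 6764 ± 111 to 3175 ± 199 RPM (SD, n = 3 each, log2 fold change -1.09, edgeR adjusted p = 1.04e-06). miR390, which starts the production of small RNAs against ARF2, ARF3 and ARF4, had 7 tested, 3 of them higher and 2 lower (median -0.25). Its leading sequence, bra-miR390-5p, rose from 21299 ± 452 to 35077 ± 2909 RPM (log2 fold change 0.72, edgeR adjusted p = 1.40e-05). miR164, which targets NAC1, a transcription factor of auxin-dependent root growth, had 5 tested, 3 of them higher and 0 lower (median 1.0). The share called was 88.9% for miR160, 71.4% for miR390 and 60.0% for miR164, against 61.0% of all sequences tested. Of all those tested, 28.1% were called higher and 32.8% lower, with a median of -0.19. The shares of miR390 and miR164 were thus near that of the table. No sequence named miR847, which targets the auxin repressor IAA28, was in the table. The families were described by these counts, and no test was made on them.

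The sequences whose profile over the 6 libraries was most like that of ath-miR167a-3p were bna-MIR156d-p3, bra-miR824 and aly-miR171b-5p. Likeness was the root mean square difference of log2(RPM + 1) values centred on their mean, over 192 sequences with a mean of at least 100 RPM, and was 0.0505, 0.0715 and 0.0873. For ath-miR393a-5p the nearest were cas-MIR472-p3_1ss14GT, bra-miR5716 and PC-5p-16765_364 (0.259, 0.267 and 0.302). The profile of ath-miR393a-5p rests on few reads, and its nearest sequences were less alike than those of ath-miR167a-3p.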

How the data were processed

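Small RNA was sequenced in 3 Nor and 3 Ver libraries, grouped by the labels. The authors removed adapters, low-complexity reads and common RNA families, and matched reads by BLAST to miRBase precursors and to the genome. The version of BLAST is not given in the sources used here. Raw values, as deposited, were estimated counts, because the authors had divided reads among rows by an unstated rule. Sequences on 1 row also had fractional values, such as 281.5 for bna-miR167d_R+1 in Nor 1. The division was therefore not only among rows of the same sequence, and counts of overlapping forms may not be counts of exact sequences. The authors also deposited normalized values, a signal equal to the raw value times 1 factor per library. Per the file headers, other columns hold precursors and positions.

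Rows of a sequence were summed and rounded to whole counts. Ver was compared with Nor in edgeR 4.0.16 (R 4.3.3) with a quasi-likelihood fit, TMM scaling, the default low-count filter and group as the only term. Benjamini-Hochberg adjustment was over the 405 sequences tested, and all adjusted p of single sequences come from edgeR unless another tool is named. Alternatives used DESeq2 1.42.0 and limma 3.58.1. The edgeR step was tested on simulated data at 405 sequences, where 68% of 2-fold changes (log2 change of 1) and 95% of 4-fold changes (log2 change of 2) were called, and 0.976% of unchanged sequences. Of 2407 nonzero values of sequences on 1 row, 233 were exactly 5 and 145 were lower, and a 0 was taken as up to 5 reads. Totals cover listed miRNA reads, not the sequencing depth. Duplexes were computed with ViennaRNA 2.7.2. Gene names are from RefSeq, by overlap of positions without regard to strand.

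The rule for named sequences took all called members and the 8 most abundant of each family, which covered all but the 18-nt miR167c form and the A08 3p sequence. Those were named to account for every member. The profiles nearest to the most abundant member of miR167 and of miR393 were taken as the 3 other sequences closest to each. The members, the lists of families and the tests were chosen with earlier results of these data known.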

Additional observations from a re-analysis of the deposited data

How the results depend on the processing

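The count of called member sequences was 10 of 14 tested. It ranged from 7 to 10 of 14 when 1 library was left out, and from 7 to 10 over all alternatives that count sequences. Over the whole table such counts ranged from 175 to 255, against 247 of 405. The number tested also changed between alternatives. With at least 10 counts in every library, 7 of 10 members and 189 of 264 sequences were called. Without the filter on low counts, 8 of 16 members and 244 of 872 sequences were called. With each listed name tested separately, 13 of 18 member names and 279 of 418 names were called. Scaling by the factors of the authors moved the median log2 fold change of all sequences from -0.19 to -0.06. The smallest called change of a member, that of bra-miR167a, ranged from 0.23 to 0.39 over its alternatives. The log2 ratio of the miR167 total was 0.62 with those factors, 0.26 when each sequence had the value of 1 of its rows, and 0.014 without its most abundant sequence. It turned to -1.11 without its 2 most abundant sequences, an alternative chosen after seeing the data, which leaves only sequences that together fell. The total ranged from 0.44 to 0.51 when 1 library was left out. The log2 ratio of the miR393 total was -1.38 when only names without a substitution were kept, which leaves ath-miR393a-5p alone. The ratio was 0.10 without that sequence, the most abundant, since the 3p sequence then carried the sum. Leaving out 1 library gave -0.83 to -0.52. The log2 fold change of bna-miR167d_R+2 changed sign, to 0.017, without Ver 1, and that of bna-MIR167d-p3, to -0.054, without Ver 3. Neither had passed the test. The value of bna-miR167d_R+2 ranged from -0.33 to 0.017 over all its alternatives, and that of bna-MIR167d-p3 from -0.054 to 0.53. The direction of the other 12 tested members was kept under all alternatives run.

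Libraries with the same replicate number did not deviate together (correlations of their deviations 0.143, -0.06 and 0.0342), and the numbers were not taken to pair them. With the replicate number as a block, 204 sequences were called, 92 higher and 112 lower, and 10 members, 2 higher and 8 lower. Not every library correlated best with its own number. Depth limits miR393 most, since all its sequences together had 23 to 86 reads per library.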
